A study of Mus musculus with 2 samples.

Results

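Timp3, Col8a1, Htra1, Efemp1, C3, Apoe and Cst3 are 7 of the 31053 genes counted in single cells of newborn mouse eye cups, and their rows were found by symbol. The rule uses no measured value, but the set was put together with earlier results of these data known. Their human counterparts lie at risk loci of age-related macular degeneration or in inherited disease of the macula, and their products act in or beside Bruch's membrane, the sheet of extracellular matrix between the retinal pigment epithelium (RPE) and the choroidal vessels. The RPE is the pigmented monolayer that nourishes photoreceptors, secretes matrix and protease inhibitors toward Bruch's membrane and handles lipoproteins. In macular degeneration, deposits rich in apolipoproteins, complement and matrix proteins form between the RPE and this membrane.

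Single-cell RNA sequencing (10x 3′ chemistry, which counts transcripts by unique molecular identifiers, UMIs) was carried out at postnatal day 0 on eye cups from which cornea, lens and optic nerve had been dissected away. Both groups were homozygous for the floxed Myrf allele, and they differed in the transgene Rx>cre, which is active in the early eye field and so reaches precursors of both the RPE and the neural retina. Myrf encodes a membrane-associated transcription factor. The control (Myrf fl/fl) and the mutant (Rx>cre Myrf fl/fl) were each 1 library of 3 pooled eye cups, so there was no replicate and no test between genotypes, and every interval below is a 95% interval for counting error only. UMIs are not subject to repeated PCR counting, but such intervals leave out the spread between animals and between dissections.

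After removal of cells under 200 detected genes or over 15% mitochondrial UMIs and of called doublets, 12494 of 14305 control barcodes (median 4270.5 UMIs) and 10832 of 12222 mutant barcodes (median 4820.5 UMIs) were kept, and 59 barcodes occurred in both libraries. The clustering left out all 7 genes, those of the related lists below, Myrf and the RPE and melanocyte markers. It gave 38 clusters that were named from marker genes. The RPE-like cells numbered 486 in the control (3.89% of cells, 95% exact binomial interval 3.56 to 4.24) and 190 in the mutant (1.75%, 1.52 to 2.02), with medians of 2538 and 10655 UMIs per cell. All 10 RPE markers had UMIs in control cells and 9 in the mutant, where Rpe65 (12 UMIs in the control) had none. Of the 8 melanocyte markers Pax3 had none in either library, but the other 7 had UMIs in both. The 8 summed to 16500 and 13200 CPM, with Mlana at 1210 and 1000 CPM and Tyr at 950 and 1190 CPM. Pmel and Mitf are on both marker lists. Myrf itself went from 745 UMIs (231 CPM, the usual scaling of a count to the total of all UMIs in the class and library) to 63 UMIs (27.6 CPM) in RPE-like cells, although tags at the 3′ end need not lie in the deleted part. Lens-like cells numbered 256 against 1, and the summed CPM of 8 lens markers in RPE-like cells was 299 and 36.8. The other compared classes were mesenchyme-like cells (1445 and 942), endothelial-like cells (428 and 166) and macrophage-like cells (253 and 69). Class sizes in tissue dissected and dissociated this way do not separate loss of cells from loss in handling.

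In GRCm38 the genes lie on 6 chromosomes. Timp3 (ENSMUSG00000020044), an inhibitor of metalloproteinases that binds the matrix, spans chr10:86300372-86349506 on the plus strand and overlaps Syn3 on the minus strand. Col8a1 (ENSMUSG00000068196), the alpha 1 chain of the short-chain collagen type VIII, spans chr16:57624258-57754737 on the minus strand. Htra1 (ENSMUSG00000006205), a secreted serine protease, spans chr7:130936111-130985660 on the plus strand and overlaps a model of Fgfr2 on the minus strand. Efemp1 (ENSMUSG00000020467), which encodes fibulin-3, spans chr11:28853204-28926743 on the plus strand. C3 (ENSMUSG00000024164), the central complement component, spans chr17:57203970-57228136 on the minus strand. Apoe (ENSMUSG00000002985), a lipid carrier of lipoproteins, spans chr7:19696109-19699188, and Cst3 (ENSMUSG00000027447), the cysteine protease inhibitor cystatin C, spans chr2:148871722-148875692, both on the minus strand. Whether the counting used the strand is not given in the sources used here, so UMIs of Timp3 and Syn3, or of Htra1 and Fgfr2, may not be fully told apart.

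The sequences just before the starts of Timp3 and Col8a1 (both lower in mutant RPE-like cells below), Efemp1 (higher) and Apoe (nearly level) are shown because these genes went in different directions in the same cells. They come from RefSeq promoters of GRCm38.p6, 5′ to 3′ on the gene's strand, up to 250 bases and ending where the first annotated exon begins: chr10:86300162-86300371, chr16:57754738-57754987, chr11:28852955-28853203 and chr7:19699189-19699438. Capitals mark a motif found.
Timp3: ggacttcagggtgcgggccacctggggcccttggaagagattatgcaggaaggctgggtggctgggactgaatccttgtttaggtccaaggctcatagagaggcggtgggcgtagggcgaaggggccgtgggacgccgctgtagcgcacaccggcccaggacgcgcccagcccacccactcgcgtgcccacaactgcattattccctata
Col8a1: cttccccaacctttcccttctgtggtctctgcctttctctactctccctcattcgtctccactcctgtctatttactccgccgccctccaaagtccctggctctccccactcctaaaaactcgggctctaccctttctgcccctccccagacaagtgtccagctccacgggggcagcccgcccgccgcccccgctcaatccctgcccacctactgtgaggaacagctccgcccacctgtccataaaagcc
Efemp1: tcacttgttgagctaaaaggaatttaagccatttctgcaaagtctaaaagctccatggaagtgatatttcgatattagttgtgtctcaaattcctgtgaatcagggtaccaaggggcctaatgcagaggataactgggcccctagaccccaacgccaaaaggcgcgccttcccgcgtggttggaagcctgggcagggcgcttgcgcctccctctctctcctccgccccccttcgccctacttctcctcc
Apoe: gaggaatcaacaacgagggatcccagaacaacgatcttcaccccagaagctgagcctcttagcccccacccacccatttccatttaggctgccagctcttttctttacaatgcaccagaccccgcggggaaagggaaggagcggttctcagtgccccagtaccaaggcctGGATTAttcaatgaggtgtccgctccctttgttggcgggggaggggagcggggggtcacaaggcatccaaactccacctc
The motifs searched on both strands of the 250 bases were CTGGCAC and CTGGTAC for MYRF, TCATGTG and TCACGTG for MITF and TAATCC for OTX2. The single match among the 7 genes was GGATTA, the other strand of the OTX2 motif, 80 bases before the first start of Apoe. Over all 32851 windows of this length, CTGGCAC was present in 4.19%, CTGGTAC in 1.83%, TCATGTG in 3.25%, TCACGTG in 3.13% and TAATCC in 6.25%. No match says only that these letters are not in this window.

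The genes differed in which cells held their transcripts. Col8a1 was concentrated in the RPE: 76% of its 13091 control UMIs and 66% of its 6755 mutant UMIs lay in RPE-like cells, which made up 3.89% and 1.75% of cells. Its level was 3090 CPM in control RPE-like cells and 123 CPM in the next class, the mesenchyme-like cells, whose interval overlapped that of the surface epithelium-like cells at 110 CPM. Cst3 in the control was also highest in RPE-like cells, at 13700 CPM, ahead of astrocyte-like cells at 6270 CPM and Schwann glia-like cells at 6000 CPM, whose intervals overlapped.

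Timp3 had 3 sources of similar strength. In the control its level was 930 CPM (897 to 964) in RPE-like cells, 832 CPM (801 to 863) in endothelial-like cells and 820 CPM (662 to 1000) in Schwann glia-like cells, and the latter intervals overlapped. Mesenchyme-like cells followed at 260 CPM but held the largest share of its UMIs, 39.1% in control cells and 51.3% in the mutant. Of the named classes, each pooled over its clusters, RPE-like cells had the highest Htra1 in both libraries, with mesenchyme-like cells next at 196 CPM in control cells and 171 CPM in the mutant, although 1 mesenchyme-like cluster, with the tendon genes Tnmd and Scx, was above the RPE-like cells at 1510 and 1160 CPM. Photoreceptor-like cells held Htra1 at 102 and 93.6 CPM, against 2.31 and 2.56 CPM in amacrine-like cells.

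Efemp1 belonged mainly to surface and connective tissue. Its highest level over a whole class was in surface epithelium-like cells, at 389 CPM (353 to 427) in control cells and 284 CPM (249 to 321) in the mutant, where the interval of a shallow mesenchyme-like cluster (212 CPM, 128 to 332) overlapped it. Mesenchyme-like cells held 57.2% and 41.6% of its UMIs. Apoe was highest in macrophage-like cells, at 16500 CPM in control cells and 16800 CPM in the mutant, followed in both libraries by RPE-like cells, Schwann glia-like cells and melanocyte-like cells in that order, with no overlap of neighbouring intervals. C3 was nearly absent: 17 UMIs in the whole control library and 16 in the mutant. Of these, 11 and 7 lay in macrophage-like cells, a level of 6.33 CPM (3.16 to 11.3) and 10.6 CPM (4.24 to 21.8), and in RPE-like cells there was 1 UMI in control cells and none in the mutant, where 3 UMIs would have been 1.31 CPM.

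**Figure D1:**
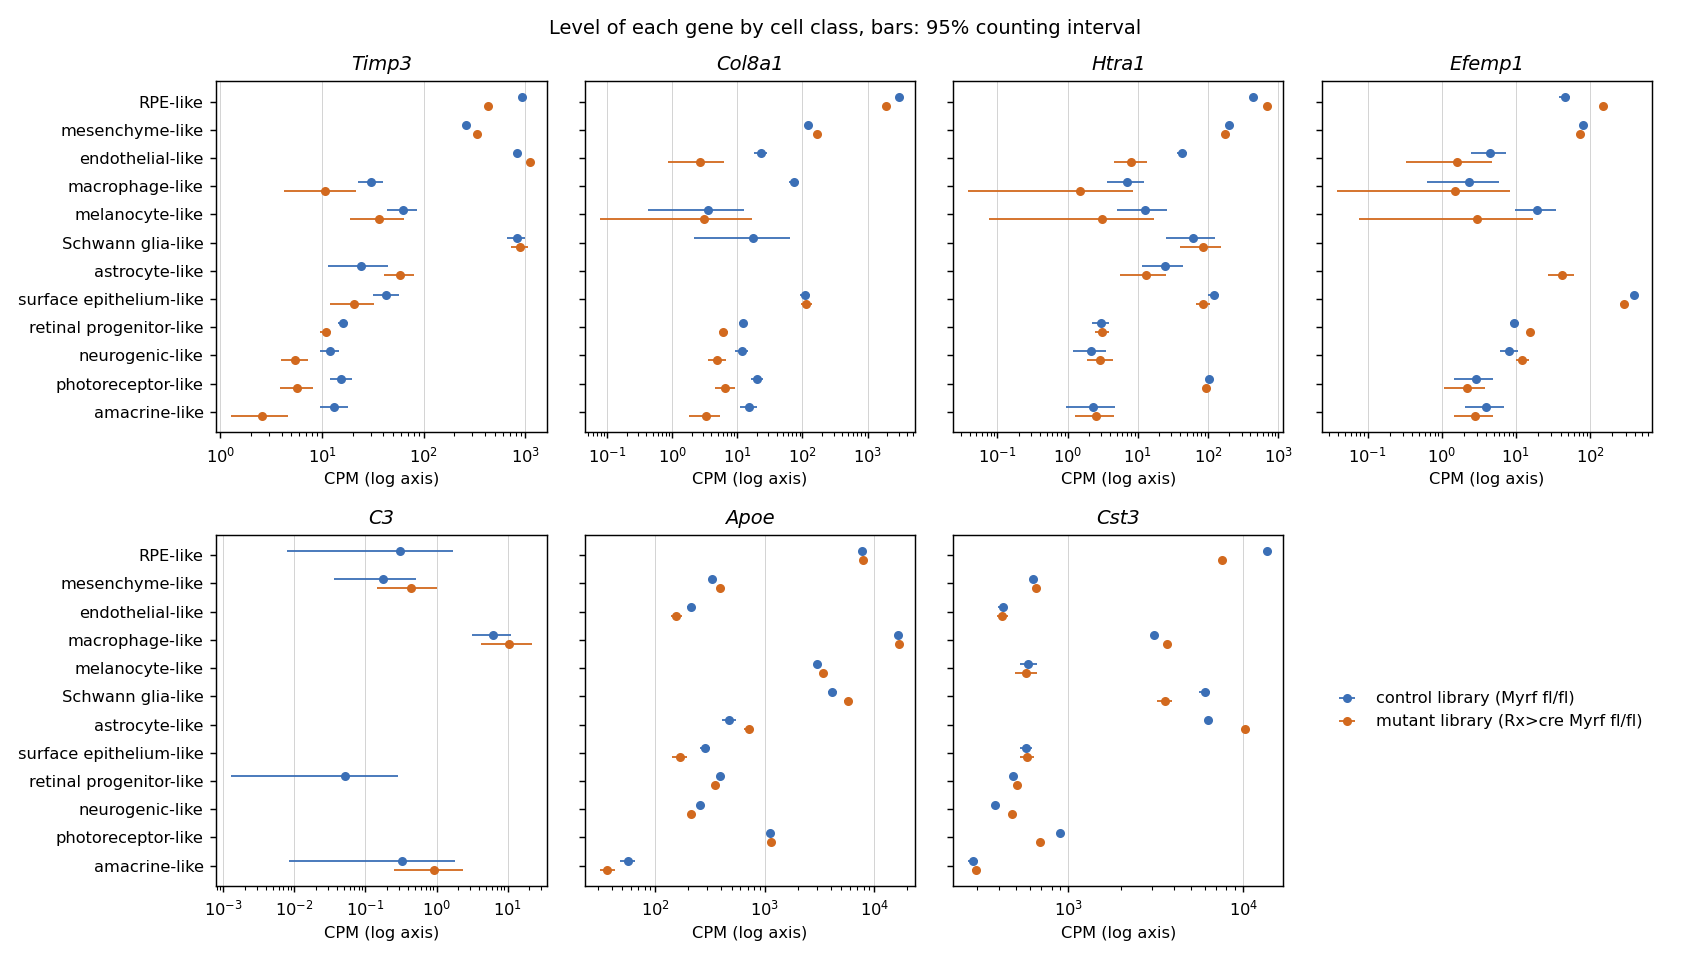
Level of each gene in 12 cell classes in CPM on a log axis, with 1 point for each library (control and mutant) and bars for the 95% exact Poisson interval of its UMIs; a library without a UMI in a class has no point. Col8a1 stands out in RPE-like cells (3090 and 1950 CPM), Apoe in macrophage-like and RPE-like cells, and C3 is near 0 outside macrophage-like cells.

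In RPE-like cells the matrix and inhibitor genes Timp3, Col8a1 and Cst3 were lower in the mutant, Efemp1 and Htra1 were higher, and Apoe was nearly level. Timp3 went from 2998 UMIs (930 CPM) to 968 UMIs (424 CPM), a log2 ratio of mutant to control of −1.13 (95% conditional Poisson interval −1.24 to −1.03), or 2.19-fold lower. Syn3, which overlaps Timp3 on the other strand, was 158 and 49 UMIs (49 and 21.5 CPM), a log2 ratio of −1.16 (−1.69 to −0.72), and how far the counts of this pair are separate was not tested. Cst3 went from 44300 UMIs (13700 CPM) to 17215 UMIs (7540 CPM), a log2 ratio of −0.87 (−0.89 to −0.84). Col8a1 went from 9950 UMIs (3090 CPM) to 4456 UMIs (1950 CPM), a log2 ratio of −0.66 (−0.71 to −0.61). These ratios lay low among all genes of the class: 4.11% of the 11054 genes with at least 20 UMIs had a lower ratio than Timp3, 6.39% a lower one than Cst3 and 10.1% a lower one than Col8a1.

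Efemp1 stood at the other end. Its UMIs went from 146 (45.3 CPM) to 341 (149 CPM), a log2 ratio of 1.70 (1.44 to 2.01) or 3.3-fold, and 99.3% of genes had a lower ratio. Htra1 went from 1407 UMIs (437 CPM) to 1570 UMIs (688 CPM), a log2 ratio of 0.65 (0.55 to 0.76), which 94% of genes did not reach. Apoe was 24575 UMIs (7630 CPM) in control cells and 17974 UMIs (7870 CPM) in mutant cells, for a log2 ratio of 0.05 (0.02 to 0.07), which is 1.03-fold. In all, 3 of the 7 genes had an interval below 0 and 3 had one above 0, Apoe among them, although the sign of Apoe changed under 5 alternatives. Over all genes of the class the shares were 14.1% below 0 and 12.8% above 0, and abundant genes pass more easily because their intervals are narrow. The median log2 ratio over all genes was −0.01. Markers of other cells moved with these values: the 10 fibroblast markers summed to 2410 CPM in control and 332 CPM in mutant RPE-like cells, with none at 0 in either, and the 10 RPE markers themselves to 24400 and 14900 CPM. Their part in the results was not tested.

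**Figure D2:**
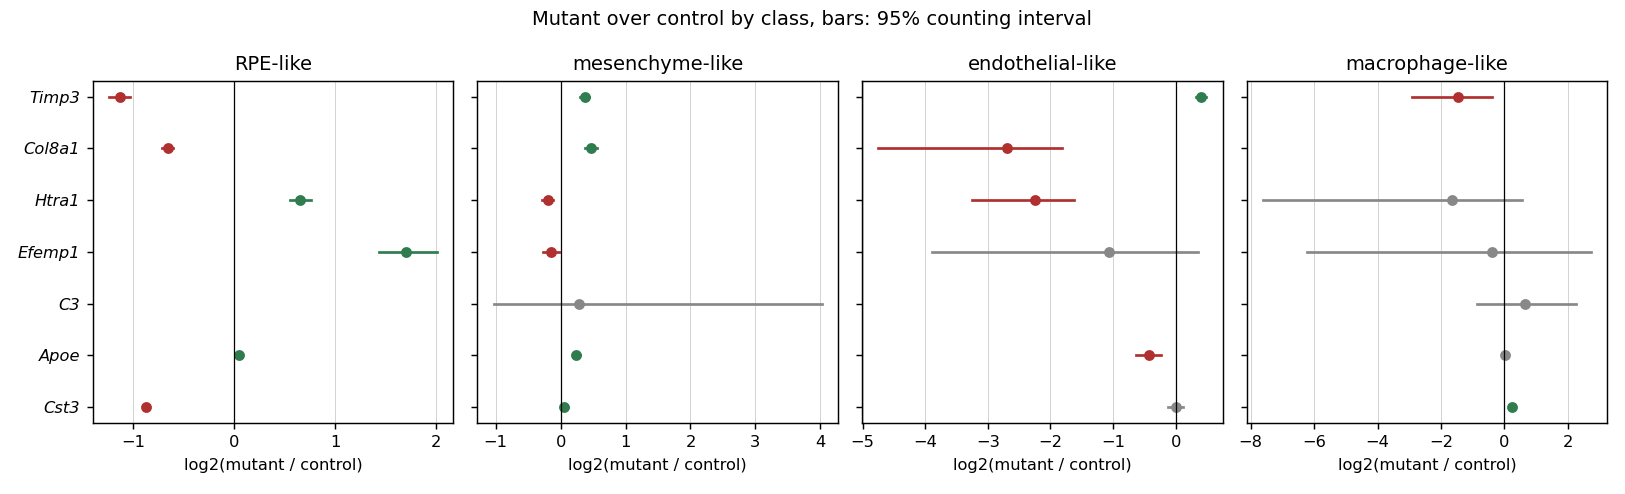
Log2 ratio of mutant to control for each gene in the 4 compared classes, with bars for the 95% conditional Poisson interval; red is below 0, green above 0, grey includes 0, and a gene with no UMI in a library is not drawn. In RPE-like cells Timp3, Col8a1 and Cst3 lie left of 0 and Efemp1 lies farthest right, while in mesenchyme-like cells Timp3 and Col8a1 lie right of 0.

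Since the mutant RPE-like cells were deeper, the same genes were read in bins of UMIs per cell. Timp3 was lower in the mutant in each of 5 bins: 676 against 345 CPM in cells up to 2000 UMIs, 519 against 108 CPM between 2000 and 4000, 467 against 223 CPM between 4000 and 8000, 915 against 377 CPM between 8000 and 16000, and 1100 against 474 CPM above 16000. Every one of these 5 log2 ratios had an interval below 0. Col8a1 and Cst3 did the same, with log2 ratios of −1.31 to −0.63 for Col8a1 and −1.22 to −0.66 for Cst3. On the log2 scale Col8a1 differed most in the shallowest cells (2500 against 1010 CPM) and least in the deepest (3610 against 2330 CPM). The interval in the shallowest cells (−1.80 to −0.85) overlapped those of the middle bins.

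Efemp1 was higher in the mutant in the 4 bins above 2000 UMIs, with 43.5 against 166 CPM in cells over 16000 UMIs, and in the shallowest bin it had 9 UMIs in control cells and 1 in the mutant. Htra1 differed by bin. In cells over 16000 UMIs (78 control and 61 mutant cells) it was 453 against 836 CPM, a log2 ratio of 0.88 (0.75 to 1.02), but between 8000 and 16000 UMIs it was 508 against 437 CPM, a log2 ratio of −0.22 (−0.44 to 0.01), and between 4000 and 8000 it was 389 against 400 CPM. Apoe was higher in the mutant up to 2000 UMIs (5020 against 6530 CPM) and at 4000 to 8000 UMIs (6890 against 9290 CPM) and lower above 16000 (8040 against 7600 CPM). For comparison, Mitf, an RPE transcription factor, was 168 and 159 CPM over all RPE-like cells, and the melanosome protein Pmel was 13900 and 10800 CPM.

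**Figure D3:**
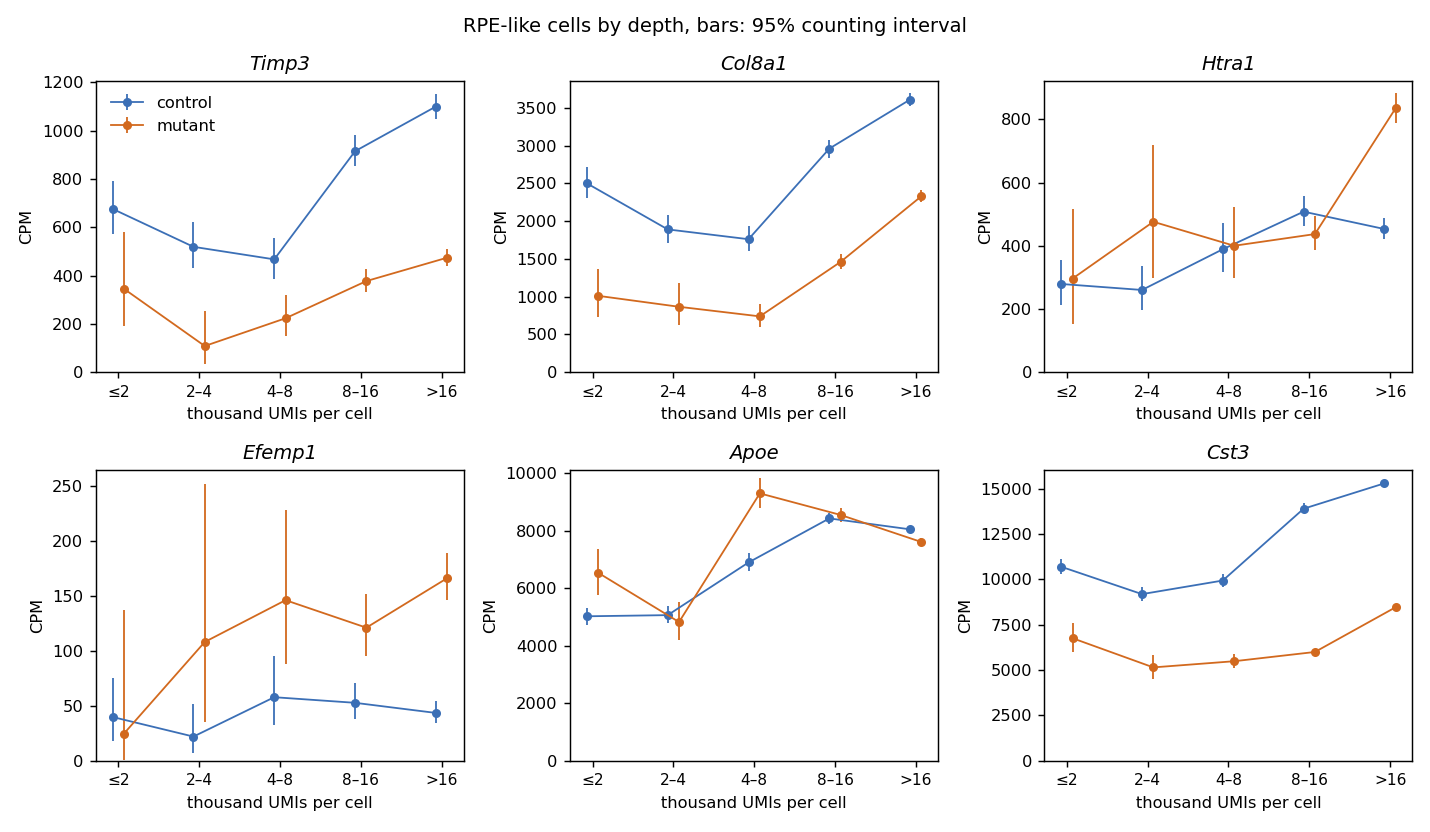
Level in RPE-like cells in CPM against the UMIs of a cell (axis in units of 1000), in 5 bins, for control and mutant, with bars for the 95% exact Poisson interval. The points of Timp3, Col8a1 and Cst3 are lower in the mutant in all bins, though the bars of Timp3 overlap up to 2000 UMIs. Efemp1 is higher in the mutant above 2000 UMIs, and the Htra1 ratio has an interval apart from 0 only at 2000 to 4000 and above 16000 UMIs.

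Shares of cells put Timp3, Col8a1 and Efemp1 in the same order once depth was made equal. With each cell thinned to 1000 UMIs (387 control and 166 mutant RPE-like cells, 99 and 24 shallower ones left out), a Timp3 UMI was found in 49.1% of control cells (44 to 54.2) and 28.9% of mutant cells (22.2 to 36.4). The unthinned shares, 67.3% and 71.1%, had the opposite order. Col8a1 was found in 78.8% and 53% of thinned cells and Cst3 in 93% (90 to 95.4) and 86.1% (79.9 to 91), whose intervals overlapped. Efemp1 was found in 3.88% of control cells (2.19 to 6.31) and 12% of mutant cells (7.52 to 18), while Htra1 was found in 30.5% and 34.3%, with overlapping intervals, and Apoe in 96.1% and 95.8%. In photoreceptor-like cells (medians of 3185 and 3455 UMIs), which should lack Timp3, Col8a1 and Efemp1, the thinned shares were 1.76% and 0.304% for Timp3, 2.34% and 0.761% for Col8a1 and 0.167% and 0.152% for Efemp1.

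Within the RPE-like class the cells varied widely. The thinned UMIs of Cst3 ran from 0 to 56 per cell in the control, with a median of 10, and from 0 to 29 in the mutant, with a median of 4. Apoe had medians of 6 and 7. Across the thinned cells of a library, which share free RNA, Col8a1 and Cst3 varied together (Pearson r of log(UMIs + 1) 0.59 over 387 control cells and 0.53 over 166 mutant cells), whereas Efemp1 was at −0.10 to 0.06 with the other genes in control cells and at 0.04 to 0.16 in the mutant. With counts as low as these, the weaker values are no finding.

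In mesenchyme-like cells, the clusters with fibroblast or pericyte markers, the directions of Timp3 and Col8a1 were opposite to those in the RPE. Timp3 went from 4437 UMIs (260 CPM) to 3790 UMIs (335 CPM), a log2 ratio of 0.37 (0.30 to 0.43) that was 0.04 (−0.07 to 0.16) in Y-positive cells lacking Xist UMIs and 2.02 in cells up to 2000 UMIs. Col8a1 went from 2094 UMIs (123 CPM) to 1925 UMIs (170 CPM), a log2 ratio of 0.47 (0.38 to 0.56), which turned to −1.69 (−3.43 to −0.35) in cells up to 4000 UMIs. Apoe was 331 and 392 CPM, a log2 ratio of 0.24 (0.19 to 0.30), and Cst3 628 and 656 CPM. Htra1, at 196 and 171 CPM, and Efemp1, at 80.7 and 73 CPM, were lower in the mutant by 1.15-fold and 1.11-fold, but in cells chosen by a marker gate in place of clusters both turned, to log2 ratios of 0.45 and 0.21. Hence 4 of 7 intervals were above 0 and 2 below 0, against 9.35% and 8.85% of all 13760 genes measured in this class. The count above 0 was 0 in cells up to 4000 UMIs, 1 in cells up to 2000 UMIs and in Y-positive cells lacking Xist UMIs, and 2 after thinning, and in the Y-positive cells Apoe turned to −0.09 (−0.19 to 0.01) and Cst3 to −0.16 (−0.24 to −0.09). C3 had 3 and 5 UMIs, all of them in the cluster led by collagen genes.

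These pooled ratios covered 7 clusters that went different ways. In the cluster led by Cxcl12 and Aldh1a2, Timp3 was 319 and 534 CPM (log2 ratio 0.74, 0.63 to 0.86) and Col8a1 was 221 and 388 CPM (0.81, 0.67 to 0.96). In the cluster led by Pi16 and Mfap5 the order was turned, with Timp3 at 86.8 and 71.2 CPM and Col8a1 at 56.3 and 38.3 CPM. Over the 7 clusters Timp3 had an interval above 0 in 3 and below 0 in 2, and Col8a1 above 0 in 4 and below 0 in 1. Htra1 had one above 0 in 2 and below 0 in 2, and Efemp1 below 0 in 1 and including 0 in 6. The Pi16 cluster held 1124 of the 1378 control UMIs of Efemp1, with a log2 ratio of 0.08 (−0.06 to 0.22). The genes also marked different clusters irrespective of genotype. Htra1, highest in the Tnmd and Scx cluster, was 17.1 and 24.6 CPM in the Cxcl12 cluster. Efemp1 was 242 and 255 CPM in the Pi16 cluster and at most 51.5 CPM in the others, and Apoe was 1470 and 1440 CPM in the cluster with the smooth muscle gene Acta2 and with Spp1. A further mesenchyme-like cluster of shallow cells (713 control and 45 mutant cells) was kept apart. With it, 1 in place of 2 genes had an interval below 0.

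**Figure D4:**
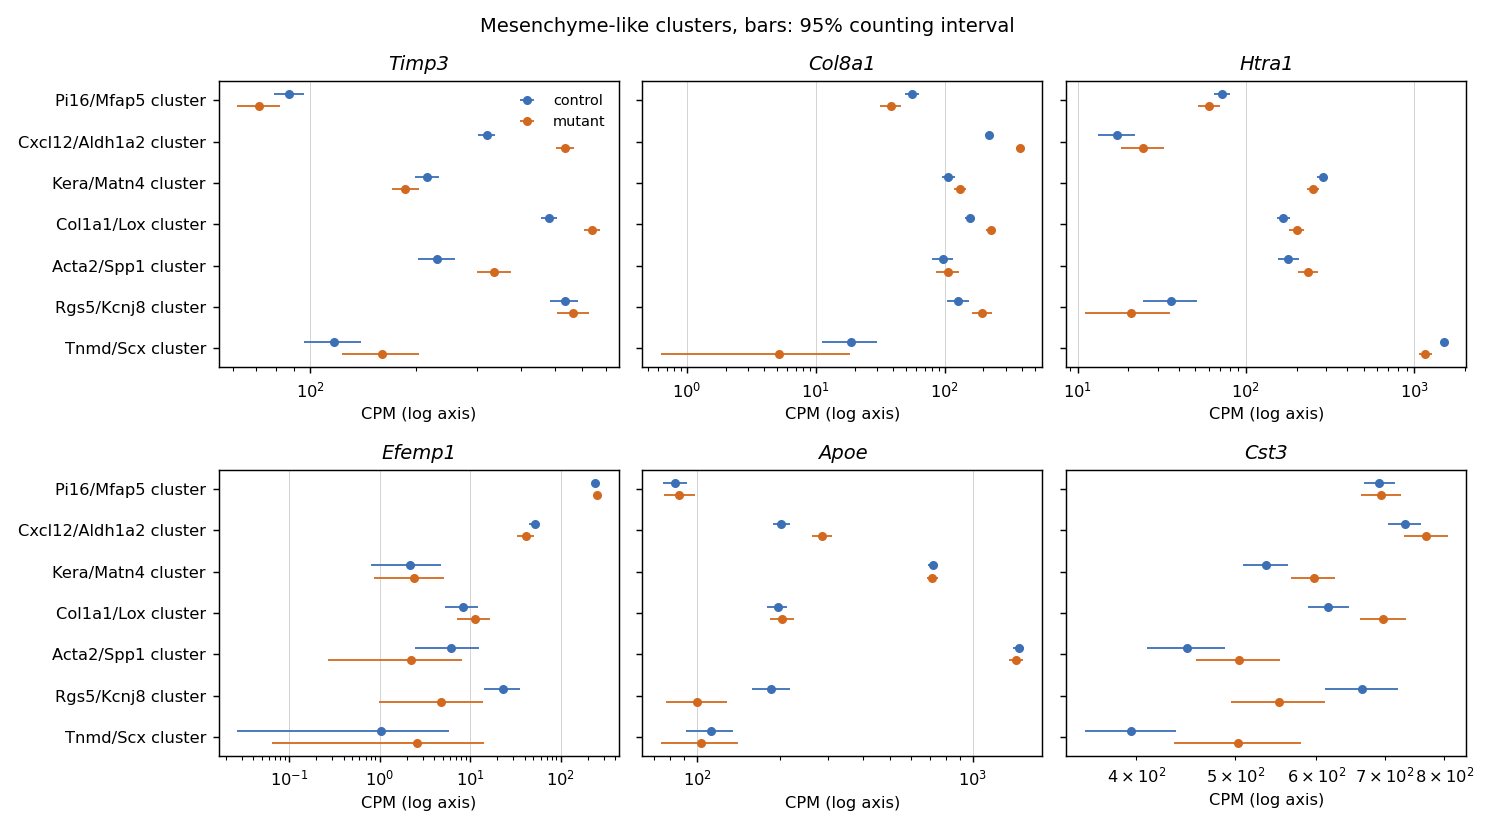
Level in CPM on a log axis in the 7 mesenchyme-like clusters, each named by genes that lead it, for control and mutant, with bars for the 95% exact Poisson interval. Timp3 and Col8a1 are higher in the mutant in the Cxcl12/Aldh1a2 and Col1a1/Lox clusters and lower in the Pi16/Mfap5 cluster, and Htra1 is highest in the Tnmd/Scx cluster.

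In endothelial-like cells of the vessels Timp3 was the one abundant matrix gene of the set. It was higher in the mutant, with 2806 UMIs (832 CPM) in control cells and 2052 UMIs (1100 CPM) in mutant cells, for a log2 ratio of 0.40 (0.32 to 0.49), and a UMI was found in 45.1% (40 to 50.3) and 58.6% (50.5 to 66.4) of thinned cells. In the mutant library endothelial-like cells thus stood above RPE-like cells for Timp3, and their interval overlapped that of Schwann glia-like cells (880 CPM, 720 to 1070). Cst3 was level at 420 and 419 CPM. Col8a1 (77 UMIs against 5, 22.8 and 2.68 CPM), Htra1 (142 against 15, 42.1 and 8.04 CPM) and Apoe (210 and 156 CPM) had intervals below 0, but in Xist-positive cells lacking Y-linked UMIs 0 genes were below 0 and 3 above, with log2 ratios of −0.16 for Col8a1 and −0.34 for Htra1, and Apoe turned to 1.01 (0.59 to 1.45). Thus 1 of 7 was above 0 and 3 were below, against 6.28% and 6.86% of the 10725 genes measured. After thinning to 1000 UMIs per cell 1 gene was below 0. The summed CPM of markers of other classes moved with these low values: fibroblast markers were 1310 and 177 CPM and RPE markers 205 and 41.3 CPM in endothelial-like cells of the control and the mutant, with 1 fibroblast marker at 0 in each library, and their part in the result was not tested. Col8a1 in amacrine-like cells, a class looked at after seeing the data, was 14.9 and 3.26 CPM.

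Macrophage-like cells had the highest level of Apoe, which was similar between genotypes at 28683 UMIs (16500 CPM) and 11158 UMIs (16800 CPM), a log2 ratio of 0.03 (−0.00 to 0.06). Under alternatives this ratio ran from −0.17 in Y-positive cells lacking Xist UMIs to 1.04 in cells up to 2000 UMIs. Cst3, a transcript typical of microglia, was 5383 UMIs (3100 CPM) and 2425 UMIs (3660 CPM), a log2 ratio of 0.24 (0.17 to 0.31). The interval of C3 included 0, with a log2 ratio of 0.66 (−0.87 to 2.24). Col8a1 had 130 UMIs (74.8 CPM) in control cells and none in the mutant, which is at least 16.5-fold lower if 3 UMIs are taken as the limit of a count of 0 in the mutant library, and Timp3 had 53 and 7 UMIs. The log2 ratio of Col8a1 was −6.24 in the clustered class but −1.61 in the marker gate. Of the 7 genes 2 were below 0 and 1 above 0, against 6.11% and 5.3% of the 8752 genes measured. After thinning to 1000 UMIs per cell, and likewise in cells chosen by the marker gate, 0 genes were below 0. In these cells the RPE markers summed to 596 CPM in control cells and 86 CPM in the mutant, with 2 and 4 of 10 at 0, and the fibroblast markers to 1480 and 119 CPM, with 0 and 3 of 10 at 0, and their part in the low values of Col8a1 and Timp3 was not tested. The 69 mutant macrophage-like cells had a median of 8565 UMIs, against 2975 in the control.

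In the neural retina Timp3, Col8a1 and Efemp1 were low, at levels that free RNA can also give, whereas Apoe (1110 and 1140 CPM) and Cst3 (899 and 684 CPM) were plentiful in photoreceptor-like cells. Timp3 lay between 11.9 and 16 CPM in 4 classes of retinal progenitors and neurons in control cells and between 2.56 and 10.9 CPM in the mutant, and Col8a1 lay between 11.6 and 20.2 CPM and between 3.26 and 6.5 CPM. Efemp1 went the other way in progenitor-like and neurogenic-like cells. It had 186 UMIs (9.51 CPM) in control and 364 UMIs (15.4 CPM) in mutant retinal progenitor-like cells, a log2 ratio of 0.64 (0.44 to 0.96), with 3 of 5 progenitor clusters above 0 and 2 including 0. Neurogenic-like cells went the same way, from 57 UMIs (8.16 CPM) to 100 UMIs (12.2 CPM), a log2 ratio of 0.52 (0.09 to 1.07). Photoreceptor-like cells held 2.85 and 2.17 CPM and amacrine-like cells 3.96 and 2.79 CPM. In astrocyte-like cells (31 and 33 cells) Cst3 was 6270 and 10200 CPM, and Efemp1 had no UMI in control cells and 26 UMIs (41.8 CPM) in the mutant, which lay in 3 of the 33 cells and in 0 of them after thinning. Melanocyte-like cells, pigmented cells of neural crest origin that share many RPE genes, held Apoe at 3020 and 3420 CPM but Col8a1 at 2 UMIs and 1 UMI.

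Related genes were read in RPE-like cells in 7 lists drawn up around the 7 genes, 123 genes in all, of which 88 had at least 20 UMIs. Of these 88, 18 were past 1.5-fold lower and 11 past 1.5-fold higher, against 12.2% and 7.52% of all 11054 genes, and their median log2 ratio was −0.06. Among other macular degeneration loci 5 of 18 measured genes were past 1.5-fold lower and 1 higher, with a median of −0.25. Slc16a8, the lactate transporter of the RPE, went from 1350 to 448 CPM (−1.59, −1.69 to −1.50) and Rdh5, a retinol dehydrogenase of the visual cycle, from 1110 to 488 CPM (−1.19, −1.29 to −1.09). Both also served as naming markers of the RPE. The metalloproteinase Adamts9 was 7.45 and 11.8 CPM and complement C2 was 20.8 and 25 CPM, with intervals that included 0.

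Of the matrix genes of Bruch's membrane and basement membranes 7 of 22 were past 1.5-fold lower (31.8%, against 12.2% of all genes) and 1 was higher (4.55%, against 7.52%), with a median of 0.00. Col8a2, the partner chain of Col8a1, went from 1206 UMIs (374 CPM) to 304 UMIs (133 CPM), a log2 ratio of −1.48 (−1.68 to −1.31). Eln, which encodes elastin, was 34.8 and 7.88 CPM (−2.01) and Col4a1, a basement membrane collagen, 54 and 13.6 CPM (−1.92). Fbn1, which encodes fibrillin-1, went from 282 to 436 CPM (0.63, 0.50 to 0.76), and Col4a6 was 22 and 24 UMIs. Eln and Col4a1 were more abundant outside the RPE-like class (420 and 282 CPM in all other control cells), while the fibroblast markers in RPE-like cells differed as given above, and their part in these values was not tested.

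Among metalloproteinases and their inhibitors 1 of 15 was past 1.5-fold lower (6.67%, against 12.2% of all genes) and 5 were higher (33.3%, against 7.52%), with a median of 0.09. Timp2 was level at 361 and 363 CPM, Timp1 was 34 and 40 UMIs (0.68, 0.04 to 1.44), and Mmp11 went from 13 to 29.8 CPM (1.13, 0.62 to 1.78), while Mmp15 and Adam17 were 13.7 and 8.76 CPM and 31.6 and 22.8 CPM. Among fibulins and HtrA proteases, the families of Efemp1 and Htra1, 2 of 7 were past 1.5-fold lower (28.6%) and 1 higher (14.3%), against the same 12.2% and 7.52%. Efemp2, which encodes fibulin-4, went from 48.4 to 81.9 CPM (0.75, 0.44 to 1.07) and Fbln7 was 41.3 and 51.7 CPM, whereas Fbln2 went from 122 to 12.3 CPM (−3.22), Htra3 from 12.4 to 6.57 CPM, and Fbln1 was 55.2 and 45.5 CPM. Fbln2 and Htra3 had 141 and 49.5 CPM in all other control cells.

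Beside Apoe, the lipoprotein genes ran from −1.62 to 3.01 on the log2 scale. Of 13 measured genes 1 was past 1.5-fold lower (7.69%, against 12.2% of all genes) and 3 were higher (23.1%, against 7.52%), with a median of −0.03. Apoc1, an apolipoprotein gene 3448 bases from Apoe on chromosome 7, went from 10 UMIs (3.1 CPM) to 73 UMIs (32 CPM), a log2 ratio of 3.01 (2.40 to 4.48), and Lpl, lipoprotein lipase, went from 76.9 to 284 CPM (1.87, 1.67 to 2.10). The receptor gene Lrp8 went from 43.7 to 13.6 CPM (−1.62) and Scarb1 from 41 to 28.5 CPM (−0.51), and the cholesterol exporter gene Abca1 was 72 and 63.1 CPM. Beside C3, only 6 of 23 complement genes reached 20 UMIs. Clu, which encodes clusterin, was abundant at 1850 and 1980 CPM, the regulators Cd55 and Cd59a went from 4.34 to 16.6 CPM and from 33.8 to 49.5 CPM, and the receptor gene C3ar1 had no UMI. Beside Cst3, 2 of 12 cystatin and cathepsin genes were past 1.5-fold lower (16.7%, near the 12.2% of all genes) and none higher (against 7.52%), with a median of −0.31. Cst6 was 11.2 and 3.94 CPM and Ctsk 33.5 and 14 CPM. Ctsd, the main aspartic protease of RPE lysosomes, went from 20643 UMIs (6410 CPM) to 9777 UMIs (4280 CPM), a log2 ratio of −0.58 (−0.62 to −0.55), while Ctsa (205 and 243 CPM) and Ctsz (241 and 277 CPM) were slightly higher.

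**Figure D5:**
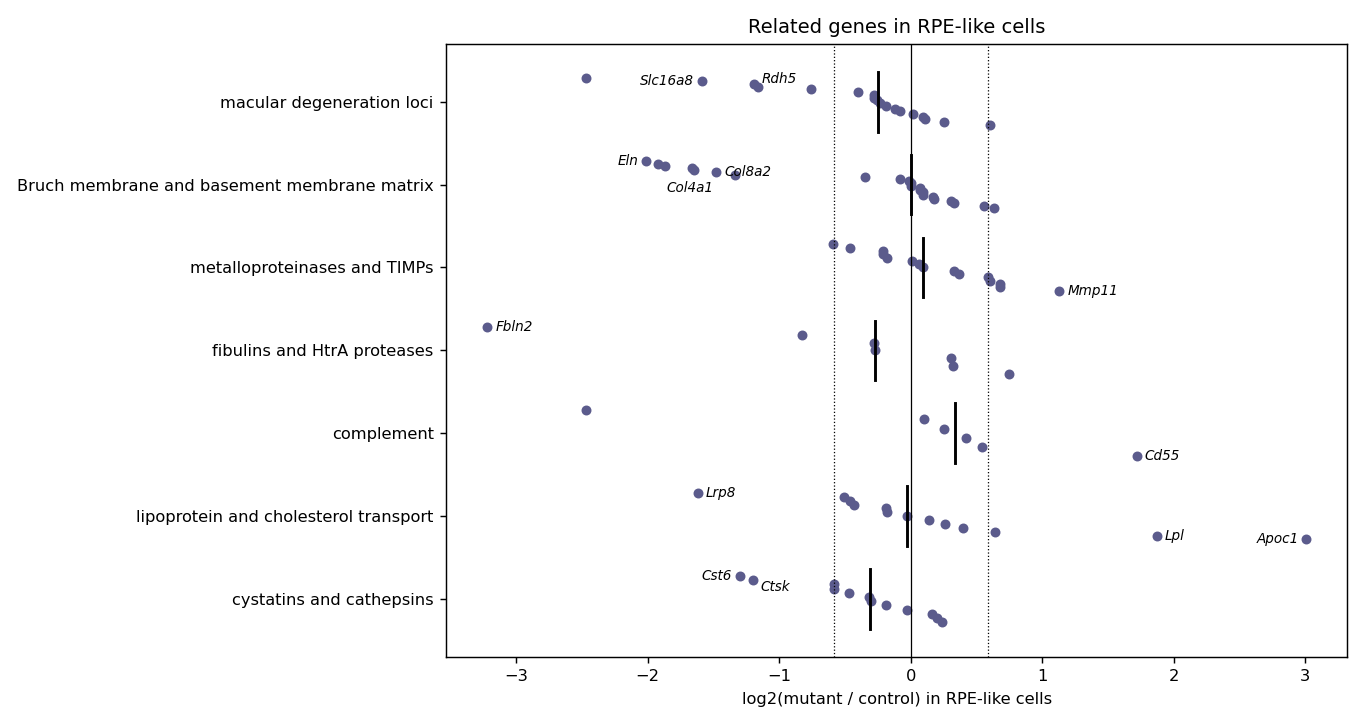
Log2 ratio of mutant to control in RPE-like cells for the measured genes of 7 related lists (1 point per gene, the 7 genes themselves left out), with the list median as a black bar and dotted lines at 1.5-fold; some of those farthest from 0 are named. Fbln2, Eln and Slc16a8 lie far left, and Apoc1, Lpl, Cd55 and Mmp11 lie right.

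By pattern over 7 classes with at least 100 cells in both libraries (14 points, each a class in 1 library, which share depth and free RNA), the genes closest to Timp3 were Sgms1, Mvb12a and Mertk (Pearson r 0.981, 0.980 and 0.980). Closest to Col8a1 were Cdh3, Baiap2l1 and 3930402G23Rik (0.987, 0.985 and 0.981), and closest to Cst3 were Il18, Cldn2 and Trim63 (0.981, 0.980 and 0.978). Htra1 was closest to Tex264, Sdf2 and Adam9 (0.977, 0.971 and 0.958), Efemp1 to Mmp11, C130026L21Rik and Gstt1 (0.986, 0.959 and 0.958), and Apoe to C1galt1c1, 2010300C02Rik and Dnase2a (0.966, 0.954 and 0.949). Macrophage-like cells, with 69 mutant cells, were not among these classes, and C3, with 33 UMIs in all, was not ranked.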

How the data were processed

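Single-cell RNA was counted in 1 library per genotype. Per the labels the authors ran Cell Ranger 7.1.0 on mm10 and used Seurat 4.1.1, and the values they deposited are unnormalized UMI counts for every gene in every barcode. The members and lists were chosen with earlier results of these data known. Cells with at least 200 genes and at most 15% mitochondrial UMIs were kept, and Scrublet (scanpy 1.11.5) removed 1637 and 1195 doublets at an expected rate of 0.8% per 1000 cells, since its own threshold marked 0% and 5.48%. The study's stated limit of 2000 UMIs per cell would have left out 80.2% and 92.1% of barcodes and was tried as an alternative. Both libraries (79017429 and 76272867 UMIs) were integrated in Seurat 5.3.0 (2000 variable genes, 1908 after removal, 30 components, resolution 1). Removed were the described genes and lists, the RPE and melanocyte markers, Myrf, Tmem98, Xist, Tsix and Y-linked genes. A cluster was named "-like" from its markers (at least 3 counted, each in at least 10% of cells and 2-fold above the rest). Rebuilt names may differ from those of the study. UMIs were summed per class and library to CPM of the class, and log2 ratios used (CPM + 1). The interval of a ratio was that of the plain ratio, without the added 1, so at low CPM value and interval can part. Intervals cover counting error only. Genes named from each list were those with the 2 lowest and 2 highest ratios of at least 20 UMIs, besides 10 fixed ones, of which 1 is not reported here. With 1 sample per group there was no test. TMM scaling, pseudocounts of 0.1 and 5 CPM, depth limits, other clusterings and marker gates were alternatives.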

Additional observations from a re-analysis of the deposited data

Results flagged for a closer look

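Between RPE-like cells and other classes, these log2 ratios of mutant to control had opposite signs, each with a counting interval apart from 0. With 1 library per genotype, the difference was not tested. Timp3 was −1.13 in RPE-like cells against 0.37 in mesenchyme-like and 0.40 in endothelial-like cells. Col8a1 was −0.66 against 0.47 in mesenchyme-like cells. Cst3 was −0.87 against 0.06 in mesenchyme-like and 0.24 in macrophage-like cells. Htra1 was 0.65 against −0.20 in mesenchyme-like and −2.25 in endothelial-like cells, and Efemp1 was 1.70 against −0.14 in mesenchyme-like cells. Within the 7 mesenchyme-like clusters the intervals above and below 0 were 3 and 2 for Timp3 and 4 and 1 for Col8a1. They were 3 and 1 for Cst3, 2 and 2 for Htra1 and 0 and 1 for Efemp1, where 6 included 0. Apoe was 0.05 against −0.42 in endothelial-like cells, but its sign in RPE-like cells changed under 5 alternatives and in endothelial-like cells under 1 (1.01, 0.59 to 1.45, in Xist-positive cells). Timp3 in mesenchyme-like cells was 0.04 (−0.07 to 0.16) in Y-positive cells, and in endothelial-like cells it was 0.16 in Xist-positive cells. Other signs turned too: Cst3 to −0.16 in mesenchyme-like and −0.14 in macrophage-like Y-positive cells, and in mesenchyme-like cells Col8a1 to −1.69 up to 4000 UMIs and, in the marker gate, Htra1 to 0.45 and Efemp1 to 0.21.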

How the results depend on the processing

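No paired analysis was possible because there was 1 library per genotype. In RPE-like cells Timp3, Col8a1 and Cst3 stayed lower in the mutant in all alternatives run, at log2 ratios of −1.45 to −0.97, −1.31 to −0.63 and −1.48 to −0.62. Efemp1 kept its sign except in cells up to 2000 UMIs (−0.67, from 10 UMIs). Htra1 turned to −0.22 between 8000 and 16000 UMIs. Apoe turned to −0.04 with a mitochondrial limit of 5%, −0.00 with doublets put back, −0.05 over 8000 UMIs, −0.08 over 16000 UMIs and −0.13 in Xist-positive cells lacking Y-linked UMIs. The restrictions of RPE-like cells to 8000 to 16000 UMIs and to over 16000 UMIs, the inclusion of the shallow mesenchyme cluster and the amacrine-like background were chosen after seeing the data.

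In RPE-like cells 1 gene in place of 3 was higher in cells up to 2000 UMIs, up to 4000 UMIs and between 8000 and 16000 UMIs. In mesenchyme-like cells 1 gene in place of 2 was lower up to 2000 UMIs, with a mitochondrial limit of 5%, with doublets put back, up to 4000 UMIs, over 8000 UMIs and with the shallow cluster, and 0 were lower after thinning to 1000 UMIs, in the marker gate and in Xist-positive cells lacking Y-linked UMIs; 1 in place of 4 was higher up to 2000 UMIs and in Y-positive cells lacking Xist UMIs, 2 after thinning and 0 up to 4000 UMIs. In endothelial-like cells 0 in place of 3 were lower up to 2000 UMIs, up to 4000 UMIs and in Xist-positive cells, where 3 in place of 1 were higher, and 1 was lower after thinning. In macrophage-like cells 0 in place of 2 were lower up to 2000 UMIs, up to 4000 UMIs, after thinning and in the marker gate, and 1 with a mitochondrial limit of 5% and over 8000 UMIs; 2 in place of 1 were higher up to 2000 UMIs, up to 4000 UMIs, over 8000 UMIs, after thinning, with TMM scaling, without integration and at resolution 2, and 0 in Y-positive cells. Single ratios turned in mesenchyme-like cells for Col8a1 (−7.68 up to 2000 UMIs, where the mutant had no UMI, and −1.69 up to 4000), Htra1 (0.29 up to 2000 UMIs, 0.01 after thinning, 0.45 in the marker gate), Efemp1 (0.21 in the marker gate, 0.20 in Xist-positive cells), Apoe (−9.16 up to 2000 UMIs, where the mutant had no UMI, and −0.09 in Y-positive cells) and Cst3 (−0.16 in Y-positive cells), for Apoe in endothelial-like cells (1.01 in Xist-positive cells) and for Cst3 in macrophage-like cells (−0.14 in Y-positive cells). The cause was not tested. Of 457 ratios under alternatives, 315 stayed within the counting interval of the reported value, 123 lay outside it, and 19 of a called direction turned. The counts of related genes past 1.5-fold were run under few of the alternatives, with 4 counts in all. They stayed within 1.5 times, at 18 to 23 lower and 10 to 15 higher, and the other alternatives were not run for them. Depth limits C3, Efemp1 in RPE-like cells and all low values in the 69 mutant macrophage-like cells.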
